A study of Mus musculus with 6 samples.

Results

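Accessible chromatin at the ends of zinc finger protein genes was examined in mouse long-term haematopoietic stem cells (LT-HSCs) that had been squeezed, and in cells that had not. A peak of the deposited consensus set was taken as a zinc finger peak when its midpoint lay within 1 kb of either end of a RefSeq protein-coding gene whose symbol is Zfp followed by digits only. Zfp36, which encodes an RNA-binding protein of another zinc finger class, was left out. This rule uses position and name alone and no count. It gave 275 peaks of 42632, and they belonged to 266 of the 366 zinc finger genes. They were compared with the 10995 other peaks within 1 kb of an end of a protein-coding gene, called other gene-end peaks. The remaining 31362 peaks lay away from gene ends.

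All 6 libraries were made by ATAC-seq, in which a transposase cuts and tags open DNA, from LT-HSCs of C57BL/6 mice aged 10 to 16 weeks, sorted from bone marrow as lineage-negative, Sca1-positive, cKit-positive, CD34-negative and Flt3-negative cells. Confined cells (n = 3 libraries) were given 13 h of suspension culture and 0.5 h to attach to fibronectin-coated glass. A coverslip on 5 µm pillars then pressed them for 2 h, and a dissociation reagent lifted them off. Unconfined control cells (n = 3) stayed in suspension for 16 h. Both groups were kept in serum-containing balanced salt solution at low oxygen. Adhesion and lifting were part of each confined sample and cannot be told apart from the pressing itself. The samples are described as biological replicates, with no statement on whether each came from a separate animal, so that p-values measure the spread between these samples. In bulk samples, fewer cells with an open site and less opening per cell cannot be told apart.

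Proteins of this family bind DNA through arrays of C2H2 zinc fingers, each finger reading a few bases. Most of the numbered mouse genes arose by local duplication and sit in clusters, and many of their products carry a KRAB domain. That domain recruits TRIM28, which in turn brings the methyltransferase SETDB1 and HP1 proteins to place histone H3 lysine 9 methylation on transposons and imprinted loci. Other members without a KRAB domain act as activators at promoters, as RNA-binding proteins or as ubiquitin ligases. Protein domains were not analysed here.

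Depth differed between the groups, as did the order of peaks within libraries. Counts in peaks totalled 340922, 221390 and 128257 in confined libraries 1 to 3 and 304898, 1229478 and 983863 in unconfined libraries 1 to 3. Across the 275 zinc finger peaks, log2(CPM + 1), with CPM here scaled to all peak counts, correlated at r = 0.545 to 0.575 between confined library 1 and the unconfined libraries, at 0.158 to 0.189 for confined library 2 and at 0.0140 to 0.0370 for confined library 3. Pairs of unconfined libraries gave 0.790 to 0.893. These are descriptions across peaks of shared libraries. Confined libraries 2 and 3 thus held little of the order of zinc finger peaks seen in unconfined cells, and results are also given with confined library 1 alone. Of 12 stem cell marker genes, 8 had a peak within 1 kb of an end, and Ly6a, Slamf1, Mecom and Gata2 had none. None of 5 T cell markers had one, against 2 of 5 each for B cell, granulocyte and monocyte, and erythroid markers. Cd34 and Flt3, both used for negative sorting, had a peak each. Summed levels (in the scaled CPM defined below) were 709 to 1070 in confined and 477 to 615 in unconfined libraries for stem cell markers. In confined libraries they were 158 to 260 for B cell, 125 to 315 for granulocyte and monocyte and 50 to 315 for erythroid markers, and 157 to 223 for Cd34 and Flt3. In unconfined libraries they were 47.1 to 96.9, 42.9 to 74.1, 13.4 to 58.9 and 71.5 to 134 for these lists. The part of these differences in the results on zinc finger peaks was not tested. The scale of these sums divides by counts in the peaks tested below. Those peaks held 34.8%, 24.2% and 23.6% of all peak counts in confined libraries 1 to 3 and 50.2%, 43.2% and 51.2% in unconfined libraries. Compared with a scale on all peak counts, it therefore raises confined levels relative to unconfined ones.

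The promoter sequences of 5 genes show what lies under these peaks. They belong to the zinc finger peaks that passed the test below or were among the 6 highest in unconfined cells, restricted to cases whose annotated transcription start lay inside the peak. Sequences are from RefSeq (GRCm38.p6, the assembly also called mm10), run from 250 bases before to 50 bases after an annotated start, and read 5′ to 3′ on the gene's strand. Capitals mark matches, on either strand, to any of 8 motifs: the ZNF143 core, CCGGAAG (ETS factors), TGACGTCA (the cAMP response element), the NRF1 palindrome, CCAAT (NFY), AAGATGGCG (YY1), the ZBTB33 palindrome and CACCC (Krüppel-like factors). No motif contains another.
Zfp72, chr13:74390780-74391079, minus strand: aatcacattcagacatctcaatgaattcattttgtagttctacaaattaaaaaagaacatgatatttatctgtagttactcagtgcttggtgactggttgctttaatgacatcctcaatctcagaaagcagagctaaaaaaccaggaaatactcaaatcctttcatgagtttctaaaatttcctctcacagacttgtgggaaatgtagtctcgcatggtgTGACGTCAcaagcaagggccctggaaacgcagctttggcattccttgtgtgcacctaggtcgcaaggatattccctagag
Zfp444, chr7:6172263-6172562, plus strand: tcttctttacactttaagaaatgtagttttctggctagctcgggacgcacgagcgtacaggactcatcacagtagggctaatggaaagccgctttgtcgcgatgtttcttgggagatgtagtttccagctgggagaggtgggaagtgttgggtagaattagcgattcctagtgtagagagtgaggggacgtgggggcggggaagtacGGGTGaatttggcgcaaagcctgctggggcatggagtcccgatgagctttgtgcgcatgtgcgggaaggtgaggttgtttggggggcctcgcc
Zfp142, chr1:74587979-74588278, minus strand: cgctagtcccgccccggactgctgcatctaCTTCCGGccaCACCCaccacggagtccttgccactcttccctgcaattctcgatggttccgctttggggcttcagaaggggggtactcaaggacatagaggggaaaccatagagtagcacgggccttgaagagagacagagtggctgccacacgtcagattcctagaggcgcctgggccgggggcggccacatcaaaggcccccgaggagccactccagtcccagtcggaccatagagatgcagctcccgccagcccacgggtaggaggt
Zfp775, chr6:48601757-48602056, plus strand: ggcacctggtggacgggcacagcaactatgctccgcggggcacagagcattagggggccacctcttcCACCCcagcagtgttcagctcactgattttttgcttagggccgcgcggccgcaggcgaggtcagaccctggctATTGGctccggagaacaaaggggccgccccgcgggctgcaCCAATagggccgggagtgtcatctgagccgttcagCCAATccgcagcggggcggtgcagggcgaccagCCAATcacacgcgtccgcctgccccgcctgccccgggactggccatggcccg
Zfp869, chr8:69716853-69717152, minus strand: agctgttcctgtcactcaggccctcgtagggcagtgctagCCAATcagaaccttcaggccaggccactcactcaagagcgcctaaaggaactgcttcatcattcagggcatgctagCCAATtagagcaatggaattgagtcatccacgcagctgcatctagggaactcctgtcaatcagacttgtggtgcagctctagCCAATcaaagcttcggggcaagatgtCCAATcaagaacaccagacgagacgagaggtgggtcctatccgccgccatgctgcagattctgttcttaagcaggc
The Zfp72 window, at a peak higher in confined cells, had 40% G+C and 4 CpG dinucleotides. The windows of Zfp444, Zfp142 and Zfp775, at peaks lower in confined cells, had 54.3%, 62.3% and 68.0% G+C and 16, 16 and 24 CpG. The Zfp869 window, under a peak with one of the highest levels in both groups, had 53.0% G+C, 8 CpG and 4 CCAAT matches. Zfp775 also had 4 CCAAT matches. The only match in the Zfp72 window was a full TGACGTCA, which 3.54% of zinc finger windows and 2.21% of other windows held.

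Most zinc finger peaks sat on promoters. Where the strand of the gene was given (228 peaks), 219 lay at the start of the gene and 9 at its 3′ end. The annotated start lay inside the 700 bp peak for 86.0% of these 228 zinc finger peaks, against 78.3% of 8795 other gene-end peaks with a strand. The median midpoint lay 57 bp downstream of the start for zinc finger peaks and 13 bp downstream for other gene-end peaks. Zinc finger genes also carried a peak more often, at 72.7% of 366 genes against 52.7% of 21530 other protein-coding genes. The share was 74.5% of the 212 zinc finger genes with another one within 100 kb, here called clustered, and 70.1% of the 154 single genes. Chromosome 7 held the most zinc finger peaks (71), followed by chromosomes 17 (36), 13 (24) and 8 (22).

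Promoters of zinc finger genes held some motifs more often than those of other genes. Over 367 zinc finger windows and 20895 windows of other protein-coding genes, the median G+C was 54.3% against 56.7%, and the median observed over expected CpG ratio 0.630 against 0.565. The ZNF143 core was present in 2.72% of zinc finger windows, against 0.383% of others. ETS matches were present in 21.8% against 11.4%, NRF1 matches in 3.27% against 1.30%, and CCAAT matches in 48.5% against 38.0%. CACCC was held by 55.9% against 59.6%. Among zinc finger genes, windows of genes with a peak had a median CpG ratio of 0.656 against 0.513 in genes without one, and NRF1 matches were in 12 of 264 such windows against 0 of 103. These shares describe letters in a fixed window and were not tested.

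Among zinc finger peaks whose start lay inside the peak, those with an ETS match stood above those without it in each unconfined library. The mean count of peaks with the match, relative to the mean of other gene-end peaks in the same library, was 1.07, 1.18 and 1.06 in confined libraries 1 to 3 and 1.23, 1.10 and 1.18 in unconfined libraries (43 peaks). These levels overlapped between groups. Peaks without the match had 1.08, 1.09 and 1.02 in confined and 1.01, 1.02 and 0.998 in unconfined libraries (153 peaks). The step was seen in all 3 unconfined libraries and in confined library 2, was small in confined library 3 and absent in confined library 1. Peaks with CCAAT had relative levels of 1.19, 1.11 and 1.06 in confined and 1.14, 1.10 and 1.12 in unconfined libraries (103 peaks). Peaks without CCAAT had 0.950, 1.10 and 0.997 in confined and 0.973, 0.974 and 0.946 in unconfined libraries (93 peaks). For CCAAT the step was seen in all unconfined libraries and in confined library 1, was small in confined library 3 and absent in confined library 2.

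Zinc finger peaks stood less far above peaks away from gene ends in confined cells, as did other gene-end peaks. A zinc finger peak held on average 1.31, 0.944 and 0.883 times the counts of a peak away from gene ends in confined libraries 1 to 3, and 1.94, 1.74 and 2.08 times in unconfined libraries 1 to 3. Other gene-end peaks held 1.25, 0.873 and 0.877 times in confined and 1.95, 1.75 and 2.10 times in unconfined libraries. For both classes no confined library reached the level of an unconfined one. The means for zinc finger peaks were 1.05 ± 0.231 in confined and 1.92 ± 0.171 in unconfined libraries (SD, n = 3 each).

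**Figure D1:**
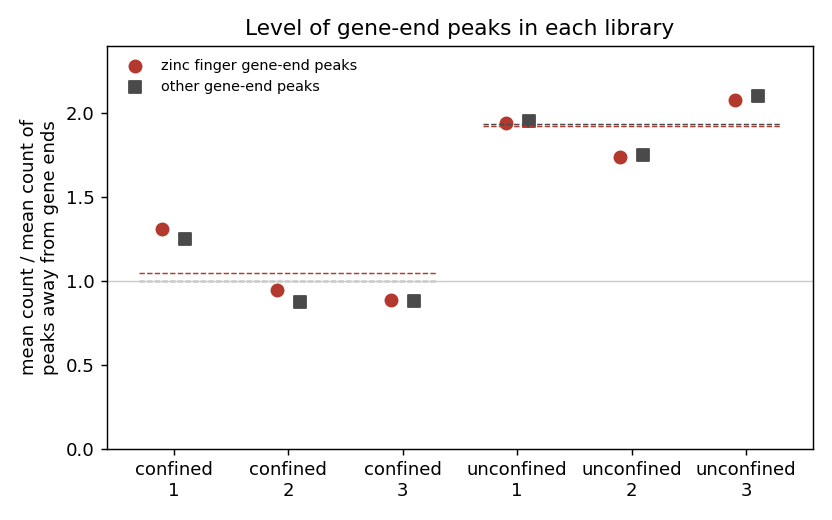
Mean count per peak of zinc finger gene-end peaks (red circles) and other gene-end peaks (dark squares), divided by the mean count of peaks away from gene ends, in each of the 3 confined and 3 unconfined libraries. Dashed lines are group means. Zinc finger peaks lie at 0.883 to 1.31 in confined and 1.74 to 2.08 in unconfined libraries, close to the other gene-end peaks of the same library.

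Set against other gene-end peaks alone, zinc finger peaks took a near constant part of the counts. Of all gene-end counts, zinc finger peaks held 2.56%, 2.63% and 2.46% in confined libraries 1 to 3 and 2.43%, 2.43% and 2.41% in unconfined libraries 1 to 3. The exact binomial (Clopper-Pearson) bounds at 95%, for counting error alone, were 2.47 to 2.66, 2.50 to 2.77 and 2.29 to 2.63 for the confined libraries. For the unconfined libraries they were 2.35 to 2.52, 2.39 to 2.47 and 2.37 to 2.46. The means were 2.55% ± 0.0893 in confined and 2.42% ± 0.0107 in unconfined libraries (SD, n = 3 each), a difference of 0.127 percentage points. The groups did not overlap, but the bounds of each confined library overlapped with those of unconfined library 1. With the bounds of unconfined library 3, those of confined library 3 overlapped and those of confined libraries 1 and 2 did not. The difference was 0.00252 points with a limit of 2 kb in place of 1 kb. No test was run on this share, since it sums over chosen members.

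Confined libraries kept less of the order that zinc finger peaks had in unconfined cells. Gene-end peaks were placed in 4 level bins of equal size by their mean in the unconfined libraries, leaving out the library being measured. Zinc finger peaks of the highest bin held 2.34, 1.38 and 1.13 times the counts of those of the lowest bin in confined libraries 1 to 3, and 6.53, 3.75 and 5.52 times in unconfined libraries. The same ratio for other gene-end peaks was 2.49, 1.24 and 1.03 in confined and 6.23, 4.21 and 6.69 in unconfined libraries. The step between low and high zinc finger peaks was therefore smaller in each confined library than in any unconfined one, and smallest in confined library 3. Since the bins come from unconfined levels, the ratio reads how far a library keeps that order and not how even its levels are.

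**Figure D2:**
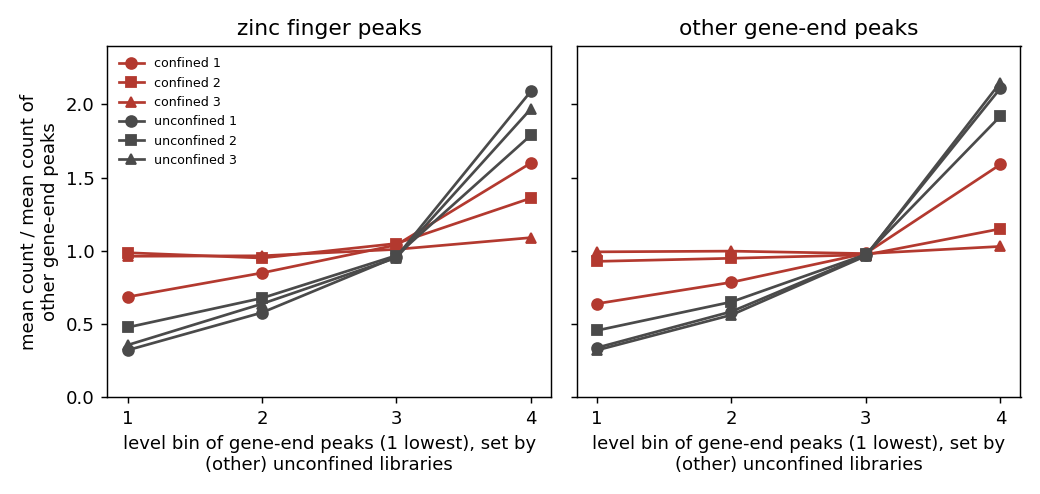
Mean count of zinc finger peaks (left) and other gene-end peaks (right) in each of 4 level bins (1 lowest), divided by the mean count of other gene-end peaks in the same library. Confined libraries are red and unconfined libraries dark, 1 line per library. Zinc finger peaks of the highest bin reach 1.6, 1.36 and 1.09 in confined libraries 1 to 3 and 2.09, 1.79 and 1.97 in unconfined libraries.

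Of the 275 zinc finger peaks, 119 passed the filter on low counts (43.3%, against 41.1% of other gene-end peaks) and were tested with edgeR among 9084 peaks. Levels of single peaks are from here on in CPM scaled by TMM, with the counts in tested peaks as the total. On this scale 3 counts correspond to 25, 55.7 and 94.4 CPM in confined libraries 1 to 3 and 20.2, 5.70 and 6.13 CPM in unconfined libraries, so a confined value often rests on few counts. At this depth 190 of the 275 zinc finger peaks had 3 counts or fewer in confined library 3, and 91 in confined library 2. The median zinc finger peak had a mean of 84.4 CPM in confined and 62.7 CPM in unconfined cells. For other gene-end peaks these medians were 80.0 and 58.5 CPM. As said above, this scale raises confined levels. Of all peak counts, zinc finger peaks held a mean of 0.671% in confined and 0.992% in unconfined libraries. Mean levels of single zinc finger peaks ranged from 22.2 to 182 CPM in confined and from 13.4 to 369 CPM in unconfined cells.

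Few zinc finger peaks passed the test, and in both directions. Peaks that did not pass were not shown to be unchanged. In confined cells 4 of the 119 tested peaks were lower (3.36%) and 3 higher (2.52%) at a Benjamini-Hochberg adjusted p under 0.05. Over all 9084 tested peaks 2.42% were lower and 5.79% higher, and over the 4514 other tested gene-end peaks 3.79% were lower and 1.04% higher. Both shares of zinc finger peaks lay between these backgrounds. With the batch number as a block, 0 zinc finger peaks were lower and 2 higher. Of all tested peaks the block left 0.815% lower and 5.24% higher. The filter shaped these counts. Zfp72 and Zfp710, which are 2 of the 3 higher peaks, passed it through all 3 confined libraries and at most 1 unconfined library, so they had to differ, while 92 of the 119 reached its limit in all 3 unconfined libraries. Every confined library lay below every unconfined library at 23 tested zinc finger peaks (19.3%, against 18.3% of all tested and 26.2% of other tested gene-end peaks). Every confined library lay above at 9 (7.56%, against 14.1% and 6.07%).

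**Figure D3:**
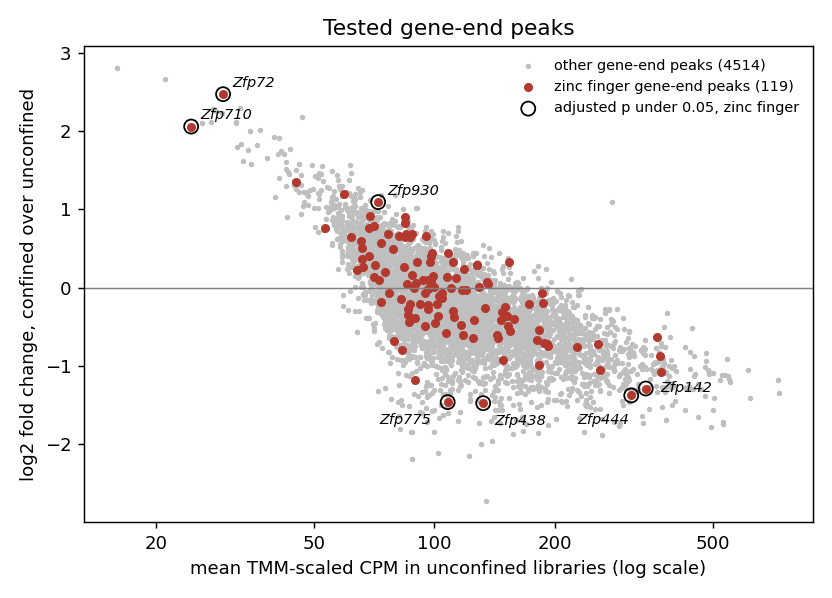
Log2 fold change (confined over unconfined) of tested gene-end peaks against mean CPM in unconfined libraries on a log scale, with 119 zinc finger peaks in red, 4514 other gene-end peaks in grey and black rings around the 7 zinc finger peaks past the threshold. Both axes share the unconfined counts. Zfp72, Zfp710 and Zfp930 lie at log2 fold changes of 2.47, 2.06 and 1.09, and Zfp142, Zfp444, Zfp775 and Zfp438 between -1.47 and -1.29.

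The median log2 fold change over tested zinc finger peaks was -0.03, against -0.26 over other tested gene-end peaks and -0.02 over all tested peaks. With no filter, which takes in all 275, the medians were -0.54 for zinc finger and -0.58 for other gene-end peaks, so the gap of 0.22 narrowed to 0.05. Using confined library 1 alone the medians were -0.50 and -0.52, and no zinc finger peak was called in either direction (edgeR, 268 tested, 38 lower and 8 higher at an unadjusted p under 0.05). That fit called 0.0185% of all 37847 tested peaks lower and 0.00793% higher, so the 0 is no result about zinc finger peaks. Its spread comes from the unconfined libraries, and the lone confined library is assumed to vary like them. With no filter 24 of 275 zinc finger peaks were lower (8.73%) and 1 higher (0.364%). Of all peaks 4.27% were then lower and 1.47% higher, and of other gene-end peaks 11.8% and 0.291%. Scaling moved the whole scale. With total counts in place of TMM the median of all tested peaks moved to -0.68, and 28 zinc finger peaks were lower (23.5%, against 25.2% of all and 35.7% of other gene-end peaks) and 2 higher (1.68%, against 3.83% of all and 0.487% of other gene-end peaks).

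The peak at Zfp72 was higher in confined cells, and passed the filter through the libraries where it was high. This zinc finger peak, on mm10 chromosome 13 from 74390359 to 74391058, spans the start of the gene (gene ID 238722, 74369321 to 74390861). It held 13, 12 and 6 counts in confined libraries 1 to 3, against 5, 16 and 12 counts in unconfined libraries, which is 108, 223 and 189 CPM against 33.6, 30.4 and 24.5 CPM. The mean was 173 ± 58.8 CPM in confined and 29.5 ± 4.62 CPM in unconfined cells (SD, n = 3 each, as for the other peaks). Every confined library lay above every unconfined one, though raw counts in confined library 3 stayed below those of the deeper unconfined libraries. In edgeR this gave 2.47 on the log2 scale (SE 0.52, adjusted p = 0.00214), and with no filter 1.56 (adjusted p = 0.0225). Over 12 alternatives in which it could be tested, the adjusted p ranged from 0.000226 to 0.344. Without confined library 2 it was 0.0604 (log2 fold change 1.95), and with confined library 1 alone the log2 fold change was 1.31 and the adjusted p 0.344.

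A peak at the 3′ end of Zfp710 was also higher in confined cells. It too passed the filter through the libraries where it was high, which favours a higher confined value. It lies on chromosome 7 from 80092156 to 80092855, around the last base of the gene (gene ID 209225, 80024814 to 80092751), and is 1 of 2 tested zinc finger peaks at a 3′ end. It held 12, 7 and 4 counts in confined and 2, 22 and 9 in unconfined libraries, or 100, 130 and 126 CPM against 13.4, 41.8 and 18.4 CPM. This averages 119 ± 16.2 CPM in confined and 24.5 ± 15.1 CPM in unconfined cells. The groups did not overlap on the scaled values (log2 fold change 2.06, SE 0.56, edgeR adjusted p = 0.0172, range over 9 alternatives 0.00376 to 0.403). It could not be tested in the other alternatives. The call was lost with no filter (adjusted p = 0.119, log2 fold change 1.18), without unconfined library 1 (adjusted p = 0.116, log2 fold change 1.40), without confined library 2 (0.102, 1.74) and with confined library 1 alone (0.403, 1.25). The peak at the start of Zfp710 had 88.0 CPM in confined and 72.8 CPM in unconfined cells and did not pass the filter.

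Zfp930 (gene ID 234358), on chromosome 8, was the third gene with a higher peak (69208701 to 69209400, 32 bp from the gene's lower-coordinate end). Its peak held 19, 9 and 6 counts in confined and 8, 46 and 37 in unconfined libraries, or 158, 167 and 189 CPM against 53.8, 87.4 and 75.6 CPM. Means were 171 ± 15.6 CPM in confined and 72.2 ± 17 CPM in unconfined cells. With 6 to 19 counts per confined library, closeness of these values is no measure of precision. Confined values were close together and all above the unconfined ones, with a log2 fold change of 1.09 (SE 0.34, edgeR adjusted p = 0.0342, range over 13 alternatives 0.0141 to 0.757). This call depended on every library. Without unconfined library 1, 2 or 3 the adjusted p was 0.305, 0.0898 and 0.171, and without confined library 1, 2 or 3 it was 0.110, 0.152 and 0.0869. The log2 fold changes were 0.53, 1.09 and 0.95 in the first set and 1.05, 0.87 and 0.88 in the second. With total counts alone the log2 fold change was 0.46, with an adjusted p of 0.334, and with no filter 0.26, with 0.757.

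Among the 4 lower peaks, that of Zfp142 was the highest in unconfined cells. It lies on chromosome 1 from 74587818 to 74588517, over the start of Zfp142 (gene ID 77264, 74566331 to 74588133) and within 1 kb of an end of Bcs1l, which encodes an assembly chaperone of mitochondrial complex III. Counts were 17, 7 and 4 in confined and 57, 157 and 164 in unconfined libraries, or 142, 130 and 126 CPM against 383, 298 and 335 CPM. Confined cells averaged 133 ± 8.26 CPM and unconfined cells 339 ± 42.7 CPM. The confined values rest on 4 to 17 counts, so their closeness is no measure of precision. The 3 confined libraries gave nearly the same level, all under the lowest unconfined value (log2 fold change -1.29, SE 0.39, edgeR adjusted p = 0.0302, range over 13 alternatives 0.00980 to 0.166). Without unconfined library 1, 2 or 3 the adjusted p was 0.0528, 0.0531 and 0.119, and without confined library 2 it was 0.0720, with log2 fold changes of -1.74, -1.58, -1.48 and -1.50.

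The Zfp444 peak was uneven among confined libraries. On chromosome 7 from 6171905 to 6172604, over the start of Zfp444 (gene ID 72667, 6172468 to 6193104), it held 20, 1 and 4 counts in confined and 48, 134 and 175 in unconfined libraries. In CPM, confined libraries had 167, 18.6 and 126 (mean 104 ± 76.5) and unconfined libraries 323, 254 and 357 (mean 312 ± 52.3). The groups did not overlap, and confined library 2 had the lowest value, from 1 count (log2 fold change -1.38, SE 0.41, edgeR adjusted p = 0.0285, range over 13 alternatives 0.00246 to 0.238). Without confined library 2 the adjusted p was 0.113 (log2 fold change -1.21), and without unconfined library 3 it was 0.0867 (-1.46). Leaving out confined library 1 gave a log2 fold change of -2.51. A neighbouring peak of the same gene, 834 bp from its start, had 66.1 CPM in confined and 38.2 CPM in unconfined cells and did not pass the filter.

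At Zfp775, on chromosome 6 from 48601743 to 48602442 over the gene's start (gene ID 243372, 48602007 to 48621548), counts were 5, 1 and 2 in confined and 16, 59 and 51 in unconfined libraries. This corresponds to 41.7, 18.6 and 62.9 CPM in confined (mean 41.1 ± 22.2) and 108, 112 and 104 CPM in unconfined libraries (mean 108 ± 3.96). Unconfined values agree closely, and all confined values lie below them at a few counts each (log2 fold change -1.46, SE 0.48, edgeR adjusted p = 0.0477, range over 12 alternatives 0.00467 to 0.172). Without unconfined library 2 or 3 the adjusted p was 0.0668 and 0.0858 (log2 fold changes -1.60 and -1.65), and without confined library 1 or 2 it was 0.0739 and 0.0886 (-1.73 and -1.43).

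The Zfp438 peak, on chromosome 18 from 5334274 to 5334973 at the upper-coordinate end of the gene (gene ID 240186, 5210027 to 5334826), held 8, 2 and 0 counts in confined and 18, 66 and 74 in unconfined libraries. The CPM values were 66.7, 37.1 and 0 in confined (mean 34.6 ± 33.4) and 121, 125 and 151 in unconfined libraries (mean 132 ± 16.3). A count of 0 in confined library 3 allows up to 94.4 CPM, so that library sets no tight limit. In edgeR this gave -1.47 on the log2 scale (SE 0.45, adjusted p = 0.0321, range over 12 alternatives 0.00428 to 0.225). The adjusted p was 0.0799 without unconfined library 3 (-1.53) and 0.0693 without confined library 2 (-1.58), and leaving out confined library 1 gave a log2 fold change of -2.63 (adjusted p = 0.0119).

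**Figure D4:**
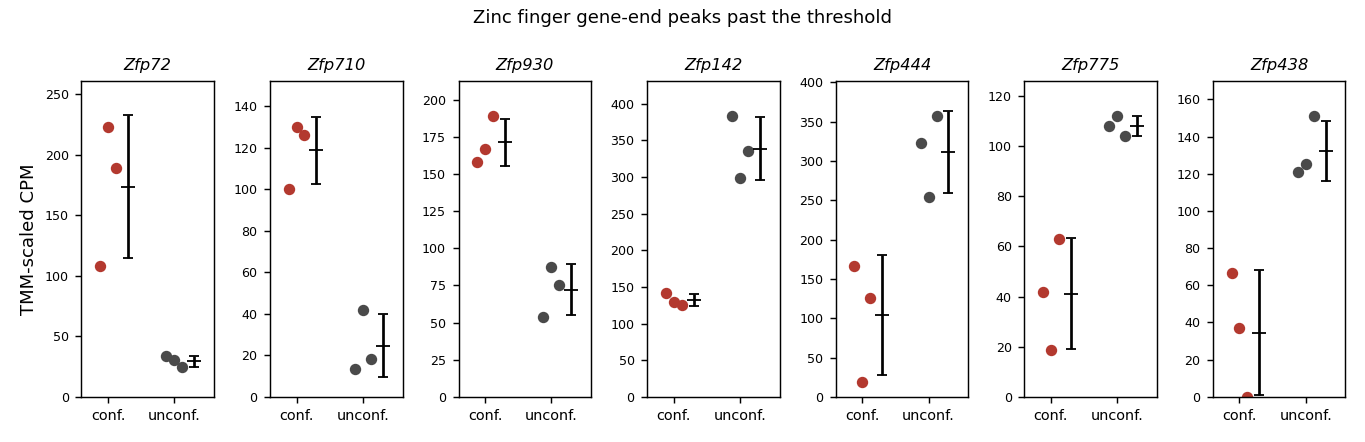
CPM in each library (points) of the 7 zinc finger peaks past the threshold, confined (red) left of unconfined (dark), with mean and SD (bars, n = 3 each) to the right of the points. The 3 confined points lie above the 3 unconfined points for Zfp72, Zfp710 and Zfp930 and below them for Zfp142, Zfp444, Zfp775 and Zfp438.

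With the experimental batch number as a block, 2 zinc finger peaks were higher and 0 lower (edgeR, 11 lower at an unadjusted p under 0.05; the block left 5.24% of all tested peaks higher and 0.815% lower). The 2 higher ones were Zfp72 and Zfp710, which entered the test through the confined libraries. The adjusted p with the block was 0.0710 for Zfp930, 0.122 for Zfp142, 0.0609 for Zfp444, 0.0759 for Zfp438 and 0.125 for Zfp775. Using confined library 1 alone these 5 had log2 fold changes of 0.44, -1.88, -1.54, -1.63 and -1.98 and adjusted p of 0.737, 0.166, 0.238, 0.225 and 0.172 (edgeR). The direction was kept in each case, which picking these peaks by p in these libraries favours. DESeq2 gave adjusted p of 0.0884 for Zfp930, 0.0565 for Zfp444, 0.118 for Zfp438 and 0.159 for Zfp775, and limma-voom gave 0.0659 for Zfp444 and 0.102 for Zfp775. The peak with the next smallest p in the higher direction, at Zfp85, missed the threshold in edgeR, at 1.20 on the log2 scale (SE 0.46, adjusted p = 0.0970, range over 13 alternatives 0.0230 to 0.923). It held 9, 7 and 9 counts in confined and 11, 32 and 21 in unconfined libraries, or 75, 130 and 283 CPM against 74.0, 60.8 and 42.9 CPM. Its value without confined library 1 was 1.63 (adjusted p = 0.0230), and with confined library 1 alone it was -0.17.

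The 6 zinc finger peaks with the highest unconfined levels averaged less in confined cells, a direction that picking them by their unconfined means favours. Apart from Zfp142 and Zfp444, the first 6 were at Zfp78, Zfp687, Zfp869 and Zfp654, and none of these 4 passed the test. The Zfp78 peak had 175, 241 and 94.4 CPM in confined and 296, 363 and 449 CPM in unconfined libraries, without overlap. Zfp687 encodes a subunit of a chromatin complex with ZMYND8. Its peak had 258, 167 and 31.5 CPM in confined and 498, 292 and 312 CPM in unconfined libraries, again without overlap. The Zfp869 peak, whose promoter with 4 CCAAT matches is printed above, had 309, 204 and 31.5 CPM in confined and 457, 317 and 312 CPM in unconfined libraries. Confined library 1 came close to unconfined libraries 2 and 3 there, and confined library 3 held 1 count. At Zfp654, a peak shared with an end of Cggbp1, the values were 183, 55.7 and 31.5 CPM in confined and 289, 237 and 255 CPM in unconfined libraries.

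The order of peaks was different in confined cells. The highest mean there was at Zfp526 (83.4, 241 and 220 CPM in confined, 101, 106 and 116 CPM in unconfined libraries), a peak also near an end of Dedd2. Zfp869 came next, followed by Zfp54 with 117, 167 and 252 CPM in confined and 94.1, 91.2 and 67.4 CPM in unconfined libraries. The start peak of Zfp174 followed, with 242, 130 and 157 CPM in confined and 141, 167 and 153 CPM in unconfined libraries. At Zfp54 each confined library lay above each unconfined one, and at Zfp526 and Zfp174 the groups overlapped. None of these passed the test, and picking them by their confined means favours a higher confined value. With confined library 1 alone the log2 fold change turned to -0.10 at Zfp54 (0.90 with all libraries) and to -1.01 at Zfp526 (0.45). Their order differs by less than their spread.

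Peaks at the better known members of the family can be given as levels. Of 20 genes listed for their known roles, 16 had a peak, with 17 peaks in all. Of these, 10 were tested and 0 passed (edgeR, 0 at an unadjusted p under 0.05), with a median log2 fold change of 0.05. Over all tested peaks 2.42% were lower and 5.79% higher, so a count of 0 in 10 is near the background. Zfp143, an activator that binds promoters, Zfp57, which maintains imprints, Zfp217 and Zfp423 had no peak within 1 kb of an end. Among transcriptional regulators, the peak of Zfp281, a regulator of pluripotency, had 25, 37.1 and 157 CPM in confined and 74.0, 85.5 and 77.6 CPM in unconfined libraries. The Zfp148 peak had 33.4, 186 and 0 CPM in confined and 114, 74.1 and 71.5 CPM in unconfined libraries. Confined values at both spread on either side of narrow unconfined ranges. Zfp521, a co-regulator known from blood progenitors, had 75, 55.7 and 189 CPM in confined and 67.2, 70.3 and 87.8 CPM in unconfined libraries, with overlap.

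The KRAB proteins of this list with a peak are Zfp809, which silences murine leukaemia virus by binding its primer binding site, and Zfp568, which represses a placental Igf2 transcript. Zfp809 had 175, 92.9 and 62.9 CPM in confined and 60.5, 96.9 and 135 CPM in unconfined libraries. Zfp568 had 83.4, 74.3 and 126 CPM in confined and 87.4, 91.2 and 77.6 CPM in unconfined libraries. Groups overlapped at both. Among members that act on RNA, ribosomes or the spindle, Zfp622, a factor of large ribosomal subunit maturation, had 100, 149 and 189 CPM in confined and 67.2, 91.2 and 71.5 CPM in unconfined libraries, without overlap and without passing the test. Its log2 fold change of 0.68 turned to -0.14 with no filter and to -0.27 with confined library 1 alone. Zfp207, a spindle assembly factor, had 91.7, 204 and 0 CPM in confined and 108, 77.9 and 85.8 CPM in unconfined libraries. The peak of Zfp91, a ubiquitin ligase of non-canonical NF-kB signalling, had 83.4, 130 and 62.9 CPM in confined and 101, 116 and 116 CPM in unconfined libraries. Zfp207 and Zfp91 overlapped between groups. The peak of Zfp318, a regulator of immunoglobulin transcript choice in B cells, had 50, 149 and 62.9 CPM in confined and 134, 133 and 108 CPM in unconfined libraries. That of Zfp830, a spliceosome-associated protein, had 66.7, 111 and 157 CPM in confined and 94.1, 103 and 73.5 CPM in unconfined libraries. Both overlapped between groups. The Zfp91 peak is shared with an end of Lpxn, and the Zfp830 peak with an end of Cct6b. The peaks at Zfp598, Zfp106, Zfp335, Zfp326, Zfp638 and Zfp384 did not pass the filter.

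Zinc finger genes in clusters and single ones carried peaks of similar level in unconfined cells. Clustered genes (160 peaks) had relative levels, as mean count over the mean of other gene-end peaks, of 1.10, 1.08 and 1.03 in confined and 0.999, 1.01 and 0.989 in unconfined libraries. Single genes (115 peaks) had 0.982, 1.09 and 0.972 in confined and 0.992, 0.982 and 0.986 in unconfined libraries. In unconfined libraries clustered and single genes lay close together, and clustered genes stood higher in confined libraries 1 and 3 but not in confined library 2. The medians of their log2 fold changes were -0.07 (69 tested) and 0.01 (50 tested). In the clustered group 1 peak was lower and 1 higher (1.45% each), and in the single group 3 were lower (6%) and 2 higher (4%), against 2.42% lower and 5.79% higher over all tested peaks. Over other gene-end peaks it was 3.79% and 1.04%.

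Promoters shared with another gene had higher levels than the rest. The 28 zinc finger peaks that also lay within 1 kb of an end of another protein-coding gene had relative levels of 1.24, 1.12 and 1.05 in confined and 1.61, 1.44 and 1.53 in unconfined libraries, without overlap. The 247 others had 1.03, 1.08 and 1.00 in confined and 0.926, 0.945 and 0.927 in unconfined libraries. Of the shared peaks, 20 were tested, with a median log2 fold change of -0.40, and 16 of the 20 were negative, against 67.4% of other tested gene-end peaks, whose median was -0.26. Without them, the gap in the share of gene-end counts between groups was 0.223 percentage points instead of 0.127. The 9 peaks at 3′ ends, which are also counted among the shared peaks or the 247 others, had lower means than both in every library. Their relative levels were 0.784, 1.04 and 0.855 in confined and 0.469, 0.684 and 0.488 in unconfined libraries. High and low groups thus both lay closer to the gene-end mean in confined libraries, as did the level bins above.

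By chromosome, the 24 zinc finger peaks of chromosome 13 had higher relative levels in confined libraries. Their relative levels were 1.17, 1.08 and 1.37 in confined and 0.831, 0.886 and 0.875 in unconfined libraries, without overlap. Of 13 tested there, 11 had a positive log2 fold change (84.6%, against 46.2% of tested zinc finger and 32.6% of other tested gene-end peaks), with a median of 0.60. Only the Zfp72 peak passed the test, and it entered through the confined libraries. With no filter 22.9% of all 275 zinc finger peaks had a positive log2 fold change. That share is not given for chromosome 13 alone. Chromosome 7 peaks had 1.10, 1.10 and 0.893 in confined and 1.02, 1.02 and 1.04 in unconfined libraries, and those of chromosome 8 had 1.33, 1.30 and 0.916 in confined and 1.38, 1.20 and 1.23 in unconfined libraries. Both overlapped between groups. Chromosome 17 peaks had 1.01, 1.07 and 1.26 in confined and 1.01, 0.982 and 0.968 in unconfined libraries. The chromosomes were picked for their number of peaks, and no test was run between them.

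**Figure D5:**
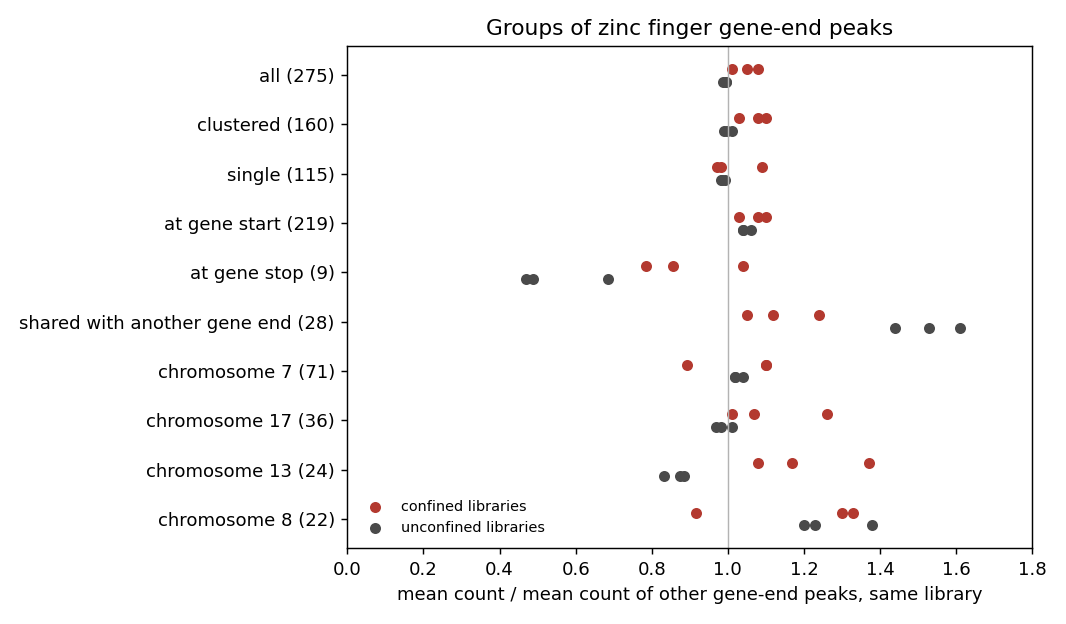
Mean count of groups of zinc finger peaks, divided by the mean count of other gene-end peaks in the same library. Each row is a group, with its number of peaks in brackets, and each point a library, confined in red and unconfined in dark. Shared peaks lie at 1.05 to 1.24 in confined and 1.44 to 1.61 in unconfined libraries, and chromosome 13 peaks at 1.08 to 1.37 in confined and 0.831 to 0.886 in unconfined libraries.

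Of the 15 genes with a pair of peaks, Zfp367 and Zfp653 are given as examples, chosen after their values were seen. At Zfp367 the peak 171 bp from the start had 116 CPM in confined and 192 CPM in unconfined cells, and the peak 923 bp away had 126 CPM in confined and 31.3 CPM in unconfined cells. At Zfp653 the peak at the start had 85.5 CPM in confined and 155 CPM in unconfined cells, and the peak at the 3′ end 56.5 CPM in confined and 30.2 CPM in unconfined cells. The weaker peaks of both genes did not pass the filter. In 14 genes both peaks had that gene as the nearest one. The ratio of the weaker to the stronger peak, named by their unconfined means, was higher in confined cells in 13 of the 14, a direction that this naming favours. At Zfp174 it was lower, at 0.398 in confined and 0.766 in unconfined cells.

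Of the genes through which KRAB zinc finger proteins act, 1 had a peak that passed. The list holds 19 annotated genes of the TRIM28, SETDB1, HP1, HUSH and deacetylase machinery, of which 15 had 18 gene-end peaks. Among the 8 tested, 1 was lower and 0 higher (edgeR), with a median log2 fold change of -0.56 and a range of -1.52 to 0.04. Other gene-end peaks had a median of -0.26 and 3.79% lower, and all tested peaks -0.02 and 2.42%. The lower one is at Cbx5, which encodes HP1 alpha. Whether peaks of this list also lie near an end of another gene is not given here. The Cbx5 peak held 10, 5 and 2 counts in confined and 38, 117 and 119 in unconfined libraries, and its mean was 79.7 ± 15.3 CPM in confined and 240 ± 16.8 CPM in unconfined cells (SD, n = 3 each). The change in edgeR was -1.52 on the log2 scale (SE 0.38, adjusted p = 0.00970, range over 13 alternatives 0.00418 to 0.122). The threshold was missed with confined library 1 alone, at a log2 fold change of -2.14. Peaks at Morc2a (65.2 ± 49.2 CPM in confined and 123 ± 10.1 CPM in unconfined cells) and Hdac1 (44.5 ± 34.3 CPM in confined and 136 ± 28.7 CPM in unconfined cells) did not pass. The peaks of Trim28 and Setdb1 themselves were under the filter.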

How the data were processed

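The authors deposited raw counts per peak for 6 ATAC-seq libraries, with coordinates of 42632 peaks of 700 bp. The submitters' processing notes list SAMtools (version 1.14), R (4.2.0), featureCounts and mm10, without roles. For the aligner, peak caller, duplicate removal, transposase shift and the libraries in which peaks were called, no information is given in the sources. A peak set drawn mainly from unconfined cells would hold fewer of the sites gained under confinement.

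Genes and promoter windows came from RefSeq (GRCm38.p6). The test on peaks was edgeR 4.0.16 (R 4.3.3, filterByExpr, about 31.0 CPM in at least 3 libraries, TMM, glmQLFit, glmQLFTest, group as the only term, two-sided, Benjamini-Hochberg over 9084 peaks). SE is the absolute log2 fold change divided by the square root of F. Alternatives were DESeq2 1.42.0, limma-voom (limma 3.58.1), other scalings, filters and distances, the batch block and libraries left out. On simulated counts for these 9084 peaks, 25% of 2-fold and 74% of 4-fold changes were called, and 5 of 8884 unchanged peaks. The simulation gave every peak the same dispersion (spread beyond counting error). It gave all libraries the same order of peaks apart from the set changes, unlike the confined libraries here. These rates may therefore not hold for the real counts.

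Same-numbered libraries share a batch number in the labels, which is where the pairing comes from. Their deviations from group means correlated at -0.00834, 0.0161 and -0.0674. Members, lists and groups of peaks were chosen with earlier results of these data known. Named peaks were those past the threshold, the 4 of smallest p per direction, the 6 highest in unconfined and the 4 highest in confined cells, and those of 20 listed genes. A split by KRAB domain was not run.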

Additional observations from a re-analysis of the deposited data

How the results depend on the processing

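The number of zinc finger peaks called lower (4) was 28 with total counts only (25.2% of all tested peaks, against 2.42%), 24 with no filter (4.27%), 2 with a filter on mean log2 CPM (2.74%), 1 with DESeq2 (0.848%), and 0 both with the replicate block (edgeR, 11 at an unadjusted p under 0.05) and with confined library 1 alone (edgeR, 38). It was 0 to 9 with 1 library left out, in fits that called 0.588% to 7.42% of all tested peaks lower. The number called higher (3) was 5 with limma-voom (which called 8.62% of all tested peaks higher, against 5.79%), 1 with no filter (1.47%), 1 with the mean log2 CPM filter (5.09%), 0 with confined library 1 alone (edgeR, 8 at an unadjusted p under 0.05), and 1 to 3 with 1 library left out. These fits test different sets of peaks, and those with 1 library left out called 1.84% to 16.0% of all tested peaks higher. The median log2 fold change (-0.03) was -0.69 with total counts only, -0.54 with no filter, -0.50 with confined library 1 alone and -0.50 to -0.17 with 1 library left out. Its gap to other gene-end peaks (0.22) was 0.05 with no filter, 0.02 with confined library 1 alone and 0.11 to 0.27 with 1 library left out. The gap in the share of gene-end counts (0.127 points) was 0.00252 at 2 kb, 0.223 without shared peaks and 0.0860 to 0.174 with 1 library left out. The log2 ratio of mean counts over other gene-end peaks differed between groups by 0.0748, and by 0.0010 at 2 kb, 0.152 without shared peaks and 0.0512 to 0.103 with 1 library left out. The cause of these moves was not tested. Of the 7 peaks past the threshold, 0 turned direction in any alternative that could test them, which picking them by p in these libraries favours. Of the 18 other tested named peaks, 11 did in at least 1, among them Zfp85 with confined library 1 alone (-0.17). Some of these 18 had small changes in the main fit, such as 0.05 at Zfp568 and -0.2 at Zfp148. The replicate block changed no call at other peaks given here with a fold change. In the simulation, a change of 2-fold was mostly not detected at this depth.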
